A study of Homo sapiens with 10 samples.

Results

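Expression and promoter contacts of 10 genes that write or read methylation of lysine 9 on histone H3 (H3K9) were compared between human embryonic stem cells (ESCs) and neuroectodermal cells (NECs). The 10 genes were taken by symbol from a count table of 31017 genes, and 9 of them had a promoter bait among the 21833 baits of the interaction lists. They comprised the methyltransferases SUV39H1, SUV39H2, EHMT1, EHMT2, SETDB1 and SETDB2, the corepressor TRIM28, and the heterochromatin protein 1 (HP1) genes CBX1, CBX3 and CBX5. The ESCs were the established line H9 (WA09), grown in Pluripro medium and matrix, and the NECs were differentiated from that same line and harvested on day 7. RNA-seq and promoter capture Hi-C (PCHi-C) were each performed on 2 biological replicates per cell type, and ESC PCHi-C replicate 2 combined technical replicates. The ESC RNA libraries shared a sequencing lane and the NEC RNA libraries shared another, so that lane and cell type cannot be told apart, and all samples came from a single cell line.

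Methylated H3K9 is the mark of heterochromatin, the compact and mostly silent part of the genome. SUV39H1 and SUV39H2 deposit it at the repeats around centromeres, the EHMT1 and EHMT2 proteins (also called GLP and G9a) act as a pair on genes in euchromatin, and SETDB1 acts on retrotransposons, to which TRIM28 brings it after binding KRAB zinc finger proteins. The HP1 proteins bind the methylated tail through a chromodomain, with CBX5 encoding HP1 alpha, CBX1 encoding HP1 beta and CBX3 encoding HP1 gamma, and in pluripotent cells this system is best known for keeping retroviral elements silent.

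Promoter windows of 300 bases, running from 250 before to 50 after a transcript start, were available from RefSeq on GRCh38.p14 for 9 of the genes in 13 windows. A window of each HP1 gene is shown because the results below turn on them, and that of EHMT2 because the RefSeq start of a second gene lies inside it. In the annotation of the counts, HNRNPA1 starts 22 bp from CBX5 and C9orf37 86 bp from EHMT1, both in the other direction. Such distances are also shorter than the 250 bases before a start. They lie at chr12:54280073-54280372 (CBX5, minus strand), chr17:48101137-48101436 (CBX1, minus strand), chr7:26201193-26201492 (CBX3, plus strand) and chr6:31897649-31897948 (EHMT2, minus strand), and read as follows from 5′ to 3′ on the strand of the gene, with capitals marking a match on either strand to the GC box GGGCGG, the CCAAT box CCAAT, the ETS motif CCGGAAG, the NRF1 motif GCGCATGC or the E2F motif GCGGGAA.
CBX5: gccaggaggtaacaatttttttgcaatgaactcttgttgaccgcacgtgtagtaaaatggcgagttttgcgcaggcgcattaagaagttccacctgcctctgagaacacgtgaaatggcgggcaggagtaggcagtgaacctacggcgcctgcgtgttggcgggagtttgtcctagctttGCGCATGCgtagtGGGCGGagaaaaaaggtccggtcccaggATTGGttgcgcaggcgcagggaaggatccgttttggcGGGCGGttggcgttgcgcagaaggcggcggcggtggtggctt
CBX1: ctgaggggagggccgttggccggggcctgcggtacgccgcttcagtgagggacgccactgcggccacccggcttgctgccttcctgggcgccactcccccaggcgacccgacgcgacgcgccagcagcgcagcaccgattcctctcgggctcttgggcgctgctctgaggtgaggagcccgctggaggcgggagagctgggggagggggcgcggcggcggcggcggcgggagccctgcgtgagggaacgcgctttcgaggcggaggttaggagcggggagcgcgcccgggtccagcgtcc
CBX3: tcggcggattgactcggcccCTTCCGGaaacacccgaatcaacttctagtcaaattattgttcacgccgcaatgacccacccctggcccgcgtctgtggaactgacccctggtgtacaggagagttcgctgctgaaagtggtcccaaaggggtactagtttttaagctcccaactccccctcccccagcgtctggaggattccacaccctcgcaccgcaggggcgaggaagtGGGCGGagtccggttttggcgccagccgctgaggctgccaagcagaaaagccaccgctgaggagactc
EHMT2: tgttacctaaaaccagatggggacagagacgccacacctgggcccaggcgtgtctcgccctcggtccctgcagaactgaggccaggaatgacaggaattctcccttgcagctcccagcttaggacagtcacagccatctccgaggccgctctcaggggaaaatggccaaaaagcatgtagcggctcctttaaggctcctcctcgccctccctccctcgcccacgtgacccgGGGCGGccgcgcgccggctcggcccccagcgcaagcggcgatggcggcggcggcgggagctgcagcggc

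Of the 3 CBX5 windows, the one shown held 2 GC boxes, 1 CCAAT box and 1 NRF1 motif. The other CBX5 windows, which overlap each other at chr12:54259496-54259836, held 1 CCAAT box each and no GC box or NRF1 motif, and had observed over expected CpG ratios of 0.192 and 0.2497, against 1.10 in the one shown. The CBX3 window held 1 GC box and 1 ETS motif and the EHMT2 window 1 GC box. None of these letters was found in the CBX1 window, which had a GC content of 75.7%. A GC box was present in 7 of the 13 windows, against 44.95% of all 35116 windows in the RefSeq table, and a CCAAT box in 5 of 13, against 34.6%. Some windows of 1 gene overlap, and the 5 windows with a CCAAT box belonged to 3 genes. The ETS motif occurred in 2 of 13 (10.3% of all windows) and the NRF1 motif in 1 of 13 (3.05%), whereas the E2F motif (6.55%) and the letters TATAAA (11.5%) were in none of the 13. The observed over expected CpG ratio had a median of 0.875 in the 13 windows and 0.579 in all windows, while the median GC content was similar (60.0% and 58.7%). These are matches of letters and not sites of binding.

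The counts summed to between 19234087 and 25356382 reads per RNA library. All 8 pluripotency markers fell in NECs and 7 of 8 neuroectoderm markers rose, with OTX2 falling. NEC replicate 2 had more of the pluripotency factor POU5F1 (111 CPM, against 31.0 in NEC replicate 1 and 1482 and 1438 in ESCs). Markers of the neural crest summed to 73.0 CPM in NEC replicate 1 and 22.9 in NEC replicate 2, against 19.7 and 20.6 in ESCs. This sum joins opposite changes. Of the 5 crest markers, 3 passed as higher in NECs and 2 did not pass. SNAI2 rose from 0.848 and 0.849 CPM in ESCs to 24.5 and 19.7 in NEC replicates 1 and 2. FOXD3 was lower in both NEC libraries (8.70 and 0.365 CPM, against a mean of 15.6 in ESCs) but did not pass. Markers of mesendoderm summed to 34.9 and 94.98 CPM in the ESC replicates, against 5.33 and 3.53 in NECs. Of 12 proliferation genes, 2 rose, 4 fell and 6 did not pass the test. The part of these differences in the results below was not tested, and in bulk RNA a change in the share of a cell type cannot be told apart from a change in RNA per cell.

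Expression is given as CPM, the number of reads of a gene scaled to a common library total by TMM. To ask how the H3K9 machinery changed as ESCs adopted a neural fate, the counts were compared with the edgeR quasi-likelihood test across 17564 genes. CBX5 and CBX1 rose most, by 2.21-fold and 1.61-fold, SETDB2, EHMT2 and SETDB1 rose by less, and TRIM28 and EHMT1 fell. CBX3, SUV39H1 and SUV39H2 did not pass the test. A gene passed when its Benjamini-Hochberg adjusted p was under 0.05, and by this measure 5 of the 10 genes were higher in NECs and 2 lower. Changes were common in the whole table, where 31.5% of the genes tested passed in the upward direction, 29.7% in the downward direction and 61.1% in either. None of the 10 met the criterion used in the study, which also requires an absolute log2 fold change above 1.5, whereas 21% of all genes did (11.4% upward and 9.68% downward). The 95% confidence intervals of all 10 lay within that limit on both sides. Their median log2 fold change was 0.21, beside 0.01 over all genes tested, and their median absolute log2 fold change was 0.36, beside 0.61.

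**Figure D1:**
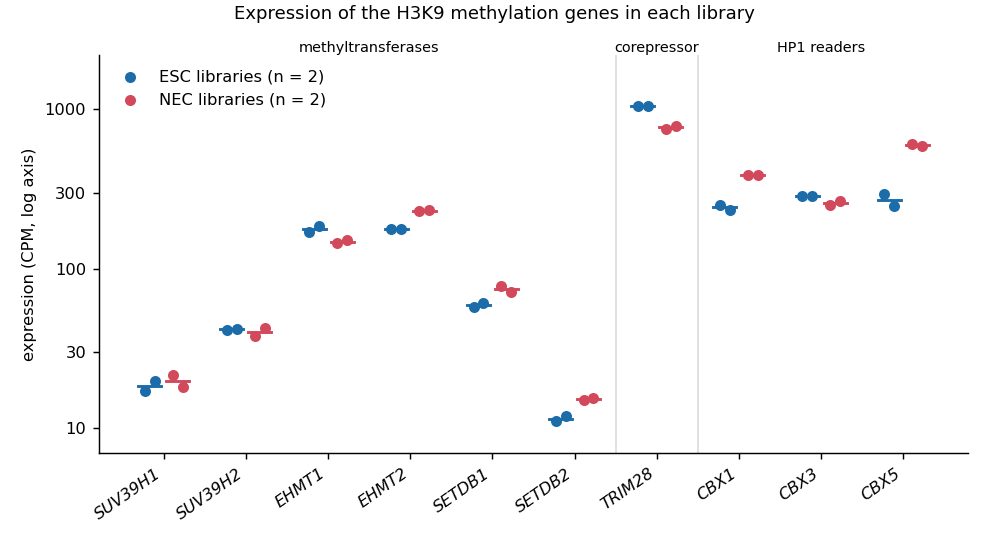
Expression of the 10 genes in CPM (log axis) in each of the 2 ESC libraries (blue) and 2 NEC libraries (red), with the bar at the mean of each cell type. The libraries of the cell types did not overlap for CBX5, CBX1, CBX3, TRIM28, EHMT1, EHMT2, SETDB1 and SETDB2, and overlapped for SUV39H1 and SUV39H2. Among all genes tested, 83.8% did not overlap, so that a lack of overlap is common.

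Among the methyltransferases, SUV39H1 and SUV39H2, the enzymes of pericentric heterochromatin, showed no detectable change. SUV39H1 (chrX:48553945-48567403, plus strand, GRCh37, as for all gene positions given here) measured 17.2 and 19.9 CPM in ESCs and 21.5 and 18.2 CPM in NECs. Its libraries overlapped between the cell types, and the log2 fold change of 0.09 had a 95% confidence interval from -0.26 to 0.44 (adjusted p = 0.602, edgeR). SUV39H2 (chr10:14920819-14946314, plus strand) measured 41.3 and 42.2 CPM in ESCs and 38.0 and 42.4 CPM in NECs. NEC replicate 1 lay below both ESC libraries and NEC replicate 2 above them, and the interval of its log2 fold change ran from -0.30 to 0.18 (adjusted p = 0.651, edgeR). Changes of up to about these bounds cannot be told from none with 2 libraries per cell type, and the sign turned without NEC replicate 1 for both genes (-0.03 for SUV39H1 and 0.02 for SUV39H2) and without ESC replicate 1 for SUV39H1 (-0.03).

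EHMT1 and EHMT2, whose products work as a complex, went in opposite directions. EHMT2 (chr6:31847536-31865464, minus strand) measured 178.7 and 178.6 CPM in ESCs and 231 and 232 CPM in NECs, so that its replicates were nearly identical and both NEC libraries stood above both ESC libraries. It rose by 0.37 ± 0.08 on the log2 scale (SE, n = 2 libraries per cell type, adjusted p = 0.00791, edgeR). EHMT1 (chr9:140513444-140764468, plus strand) measured 170 and 185 CPM in ESCs and 145 and 151 CPM in NECs, with all NEC values lower. It fell by 0.26 on the log2 scale (SE 0.09, n = 2, adjusted p = 0.0398, edgeR). This call was lost with scaling by library size alone (adjusted p = 0.0819) and without ESC replicate 1 (0.0825), ESC replicate 2 (0.279) or NEC replicate 1 (0.0817). That of EHMT2 was lost without ESC replicate 1 (adjusted p = 0.0926) or ESC replicate 2 (0.0886).

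SETDB1 and SETDB2, which share a split SET domain, both rose modestly. SETDB1 (chr1:150898739-150937213, plus strand) measured 57.6 and 61.3 CPM in ESCs and 78.2 and 71.9 CPM in NECs, and its log2 fold change was 0.34 ± 0.09 (SE, n = 2, adjusted p = 0.0196, edgeR). SETDB2 (chr13:50018429-50069138, plus strand) was the least abundant of the 10 genes, with 210 and 294 reads in the ESC libraries and 321 and 385 in the NEC libraries, or 11.1, 11.9, 15.02 and 15.6 CPM. No NEC library of either gene reached down into the ESC range. The log2 fold change of SETDB2 was 0.41 ± 0.14 (SE, n = 2, adjusted p = 0.0388, edgeR), but DESeq2 on the same counts did not call it (adjusted p = 0.151), and its call was lost without any of the 4 libraries (adjusted p = 0.0545 to 0.209). SETDB1 lost its call without ESC replicate 1 (0.157), ESC replicate 2 (0.0701) or NEC replicate 1 (0.0618).

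TRIM28, the corepressor that links KRAB zinc finger proteins to SETDB1, was the most abundant of the 10 genes in both cell types. TRIM28 (chr19:59055836-59062082, plus strand) measured 1053 and 1051 CPM in ESCs and 757 and 791 CPM in NECs. The ESC replicates were nearly identical, and both NEC libraries lay below them. It fell by 0.44 on the log2 scale (SE 0.11, n = 2, adjusted p = 0.0113, edgeR), a level 1.36-fold lower, and the call was lost without ESC replicate 1 (adjusted p = 0.0775) or ESC replicate 2 (0.0851).

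The HP1 genes did not move together. CBX5 (chr12:54624724-54673955, minus strand) measured 295 and 247 CPM in ESCs and 608 and 591 CPM in NECs. Although the ESC replicates differed, both NEC libraries stood far above both ESC libraries. Its log2 fold change of 1.15 ± 0.12 (SE, n = 2, 95% confidence interval 0.86 to 1.43, adjusted p = 0.000414, edgeR) was the largest among the 10. CBX1 (chr17:46147414-46178883, minus strand) measured 251 and 234 CPM in ESCs and 388 and 390 CPM in NECs. Both NEC libraries were above the ESC range, with a log2 fold change of 0.68 ± 0.09 (SE, n = 2, adjusted p = 0.00114, edgeR). CBX3 (chr7:26240782-26252976, plus strand) measured 285 and 286 CPM in ESCs and 251 and 265 CPM in NECs. Its NEC libraries were both lower, yet the interval of the log2 fold change included 0 (-0.36 to 0.07, adjusted p = 0.194, edgeR), and among all genes tested 83.8% had CPM values that did not overlap between the cell types. CBX5 and CBX1 passed, and CBX3 did not, under every alternative tried, each left-out library included. The annotation names 5 pseudogenes after CBX1, 10 after CBX3 and 1 after CBX5, none of which is a row of the count table, and how reads matching several places were counted is not given in the sources used here.

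**Figure D2:**
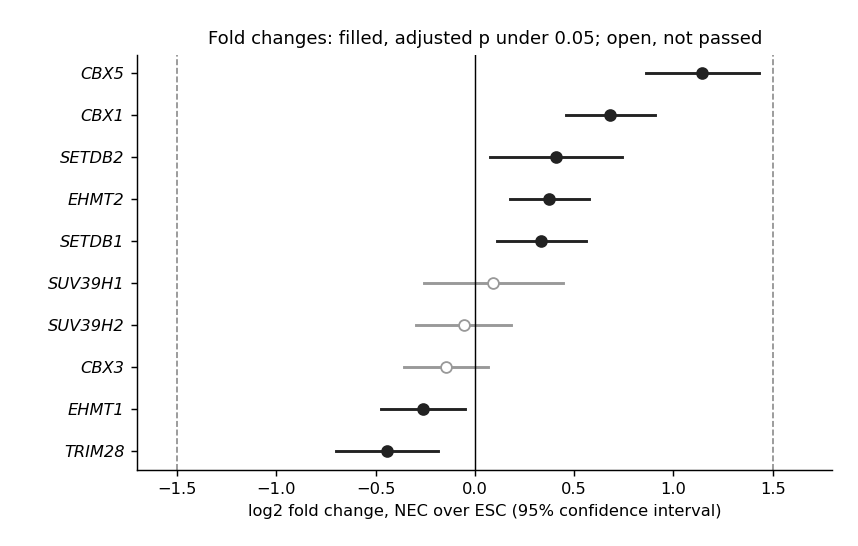
Log2 fold change of each of the 10 genes, NEC over ESC, with the 95% confidence interval from the edgeR fit (horizontal line). Filled points passed at an adjusted p under 0.05 and open points did not, and no interval reached the dashed lines at -1.5 and 1.5.

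The order of the levels was next examined per length, as RPKM (CPM divided by the length in kilobases) with the union of all exons as the length. TRIM28 led in both cell types (244 ± 0.286 RPKM in ESCs and 180 ± 5.57 in NECs, SD, n = 2), followed by CBX1 (79.6 ± 3.98 and 128 ± 0.434) and CBX3 (59.0 ± 0.161 and 53.3 ± 2.14). EHMT2 stood above CBX5 in ESCs (24.5 ± 0.00681 against 18.02 ± 2.28 RPKM), and CBX5 above EHMT2 in NECs (39.9 ± 0.770 against 31.7 ± 0.113). SUV39H2 followed at 11.7 ± 0.180 RPKM in ESCs and 11.3 ± 0.864 in NECs. Its spread met that of SETDB1 in NECs only. SETDB1 and EHMT1 came next and were within their spread of each other in ESCs (8.06 ± 0.349 and 7.99 ± 0.465 RPKM) but not in NECs (10.2 ± 0.599 and 6.67 ± 0.177), where EHMT1 and SUV39H1 (6.13 ± 0.726) were within theirs. SETDB2 was lowest, at 1.73 ± 0.0817 and 2.31 ± 0.0621 RPKM. The length used decides part of this order, and the lengths came from a newer gene annotation than the one used for the counts. For EHMT1 the union of exons was 22188 bp and the canonical transcript 5095 bp. With the length of the canonical transcript, a choice made after seeing the data, EHMT2 stood above CBX5 in both cell types (44.9 against 23.5 RPKM in ESCs and 58.2 against 51.9 in NECs), so that the exchange of their order held only with the union of exons. With the canonical length CBX3 also stood above CBX1 in ESCs (139 against 111 RPKM), SETDB1 above SUV39H2 in NECs (16.99 against 13.1), and EHMT1 reached 34.8 RPKM in ESCs and 29.0 in NECs, above both SETDB1 (13.5 and 16.99) and CBX5 in ESCs (23.5).

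Several of the 10 genes share their promoter fragment with another gene, and these neighbours did not always follow them. The CBX5 start lies 22 bp from that of HNRNPA1, a splicing regulator with many processed pseudogenes that is transcribed in the other direction, and the annotated bodies of these genes do not overlap. HNRNPA1 measured 530 ± 20.5 CPM in ESCs and 2579 ± 166 in NECs (SD, n = 2) and rose by 2.28 on the log2 scale (SE 0.13, adjusted p = 5.07e-05, edgeR), which is more than CBX5 itself and past the criterion of the study. The CBX3 start lies 367 bp from the opposing start of HNRNPA2B1, a related splicing regulator, which like CBX3 did not pass (1878 ± 48.2 CPM in ESCs, 1587 ± 110 CPM in NECs, adjusted p = 0.135 with edgeR for a log2 fold change of -0.24). The annotated bodies of CBX3 and HNRNPA2B1 overlap by 368 bp and the counting ignored strand, so that reads from the overlap cannot be assigned to either.

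At the EHMT2 bait, the complement gene C2 starts 98 bp away on the other strand and rose by 1.79 on the log2 scale (SE 0.23, adjusted p = 0.000888, edgeR), and the zinc finger gene ZBTB12 rose by 1.56 (SE 0.10, adjusted p = 6.69e-05, edgeR). At the EHMT1 bait the direction differed from that of EHMT1. C9orf37, which starts 86 bp from EHMT1 in the other direction, rose by 0.50 (SE 0.14, adjusted p = 0.0214, edgeR) and ARRDC1 by 0.41 (SE 0.15, adjusted p = 0.0468, edgeR), while AL365502.1 did not pass (0.29, adjusted p = 0.367). The TRIM28 bait also holds the starts of CHMP2A, a subunit of the membrane-cutting ESCRT machinery, which rose by 0.77 (SE 0.12, adjusted p = 0.00219, edgeR), and of UBE2M, an enzyme of the NEDD8 pathway, which fell by 0.46 (SE 0.10, adjusted p = 0.00627, edgeR). SNX11 at the CBX1 bait did not pass (0.07, adjusted p = 0.574, edgeR), and the noncoding gene RP11-968A15.8 at the CBX5 bait had at most 3 reads in a library and was not tested. Outside the baits, SETDB1 overlaps CERS2 and SUV39H2 overlaps DCLRE1C on the opposite strand, with the same limit on assigning reads. The limit also holds for SUV39H1, which overlaps AF196970.3 over 10050 bp (at most 109 reads in a library). It holds as well for EHMT2, which overlaps EHMT2-AS1 over 294 bp (at most 148 reads). EHMT1, SETDB2 and CBX5 overlap opposite-strand genes with at most 21 reads in a library.

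Other genes of H3K9 methylation were examined next, in 5 lists comprising 41 genes, of which 40 were tested. Of these, 13 rose in NECs, 10 fell and 17 did not pass, with a median log2 fold change of 0.06. The share that passed in either direction (23 of 40) was near the 61.1% of all genes. Among 11 demethylases, which remove the mark, 3 rose and 4 fell, and the furthest from 0 in each direction were PHF2 (from 21.8 and 21.4 CPM in ESCs to 58.5 and 49.7 in NECs, log2 fold change 1.33 ± 0.12) and KDM4C (from 36.7 and 34.9 CPM to 13.8 and 14.1, -1.36 ± 0.11, SE, n = 2 for both). Among 10 cofactors of the methyltransferases and components of the HUSH silencing complex, 1 rose and 4 fell. ATF7IP2, related to the SETDB1 partner ATF7IP, fell by 1.26 (SE 0.22), and CDYL, a chromodomain corepressor, fell by 0.75 (SE 0.11).

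All 3 PRDM-type SET genes rose, and 2 of them met the criterion of the study. MECOM, a zinc finger regulator, went from 0.901 and 0.890 CPM in ESCs to 9.22 and 5.59 in NECs, and PRDM16, its close relative, from 1.06 and 0.930 to 7.49 and 3.61. Both NEC replicates of each gene exceeded both ESC replicates, and in both genes replicate 1 was the higher NEC library. Their log2 fold changes were 3.04 ± 0.34 and 2.47 ± 0.42 (SE, n = 2, adjusted p = 0.000575 and 0.00288, edgeR). Of 13 HP1 partners and pericentric heterochromatin genes, 4 rose and 2 fell, including SUV420H2, which methylates lysine 20 of histone H4 (1.31 ± 0.14), and HELLS, a chromatin remodeller (-1.10 ± 0.13). Of 4 zinc finger genes known to recruit TRIM28, 3 were tested, and ZNF445 (0.64 ± 0.09) and ZNF91 (0.38 ± 0.12) rose. The fourth, ZFP57, had too few reads to be tested, at 0.689 CPM or below in every library.

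**Figure D3:**
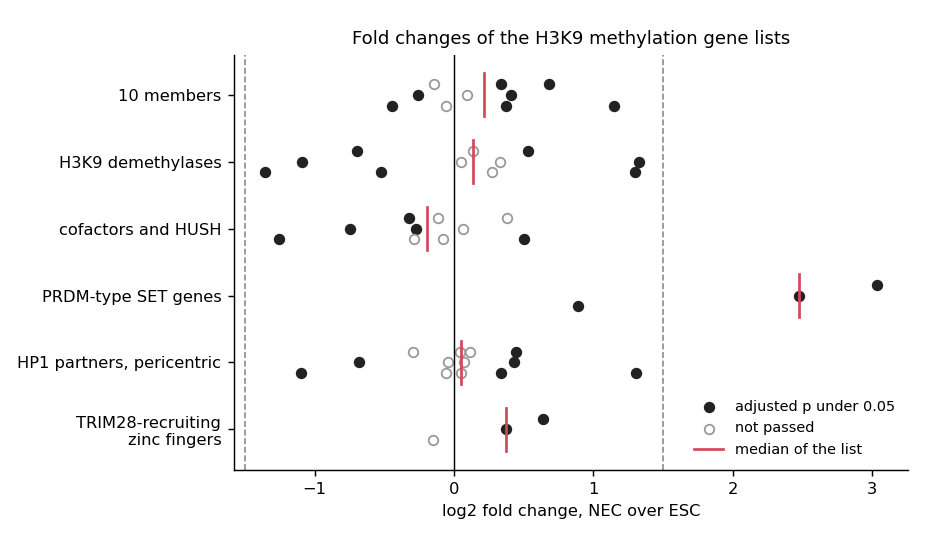
Log2 fold change, NEC over ESC, of each tested gene in the group of 10 and in the 5 further lists of H3K9 methylation genes. Filled points passed at an adjusted p under 0.05, open points did not, red lines mark the list medians and dashed lines the limits of -1.5 and 1.5, which only MECOM (3.04) and PRDM16 (2.47) exceeded.

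The promoter contacts of the genes were then compared. In PCHi-C, ligated pairs of HindIII fragments are captured with baits on promoter fragments, and a promoter-interacting region (PIR) is what a promoter fragment was found paired with. The CHiCAGO score of a pair is its weighted p-value on a negative log scale, computed against a background of distance and technical bias. Pairs that scored 12 or more are listed for each replicate and for the replicates merged. The lists give no read numbers, so the depth behind a score is unknown. With 2 replicates against 2, no permutation test could reach p under 0.05 (the values are therefore given side by side), and a pair missing from a list is one that scored under 12 and is not shown to lack contact. Where another gene starts in the same bait, the pairs of that bait belong to both genes and cannot be assigned to either. SETDB2 had no bait in the lists.

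EHMT2, CBX5 and CBX3 had the most PIRs of the 9 baits, and EHMT1 and TRIM28 the fewest in the replicates. The CBX3 bait had 9 and 16 PIRs in ESC replicates 1 and 2, against 17 and 11 in those of NECs. EHMT2 had 16 and 20 PIRs in ESCs, against 19 and 15 in NECs, and CBX5 had 15 in each ESC replicate, against 16 and 15 in NECs. The replicate ranges of the cell types overlapped for all 3 genes. Depending on the replicate, 0.980% to 3.14% of all baits had as many PIRs as EHMT2 or more, 2.20% to 3.78% as many as CBX5 or more, and 1.96% to 12.6% as many as CBX3 or more, while the median bait had 3.

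SUV39H2 had 5 and 4 PIRs in ESCs, against 6 and 4 in NECs, and CBX1 had 7 and 4, against 2 and 5. SUV39H1 had 0 and 4, against 4 and 6. These also overlapped between the cell types. EHMT1 and TRIM28 had at most 1 PIR in any replicate. SETDB1 was the only one of the 9 baits whose replicates did not overlap, with 3 in each ESC replicate and 1 in each NEC replicate, beside 12.8% of all baits with no overlap and fewer in NECs and 13.1% with more in NECs. None of its 8 pairs was called in more than 1 replicate.

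**Figure D4:**
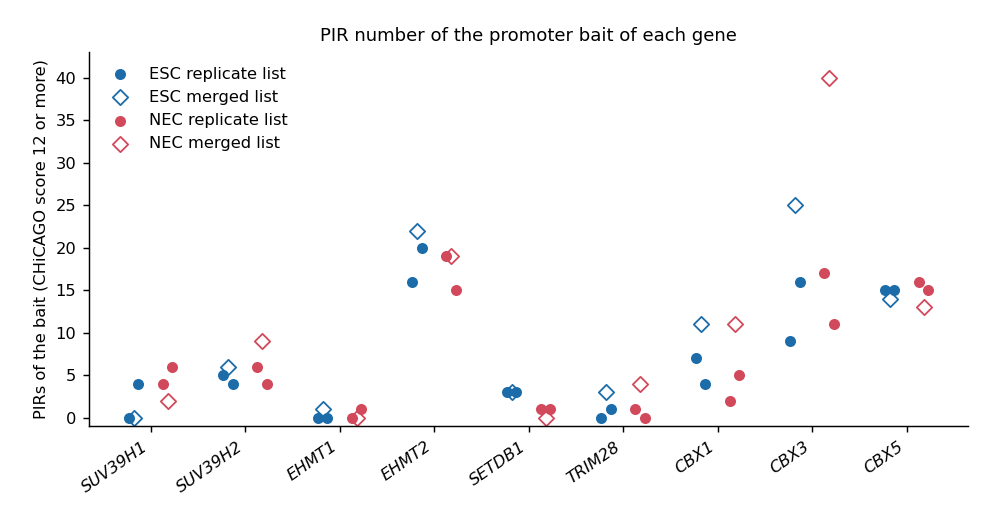
Number of PIRs of each of the 9 promoter baits in the ESC (blue) and NEC (red) replicate lists (points) and merged lists (open diamonds), at a CHiCAGO score of 12 or more. The CBX3 bait had 25 PIRs in the merged ESC list and 40 in the merged NEC list, while its replicates overlapped (9 and 16 against 17 and 11).

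In the merged lists the 9 baits had 85 PIRs in ESCs and 98 in NECs, all on the same chromosome as the bait. The CBX3 bait differed most, with 25 in ESCs and 40 in NECs, and 2.07% of all baits had as many or more in ESCs and 0.376% in NECs. The other baits had 22 and 19 (EHMT2), 14 and 13 (CBX5), 11 and 11 (CBX1), 6 and 9 (SUV39H2), 3 and 4 (TRIM28), 3 and 0 (SETDB1), 0 and 2 (SUV39H1) and 1 and 0 (EHMT1). A total of 55 PIRs were the same fragment in both cell types, which is 64.7% of those in ESCs and 56.1% of those in NECs, beside 44.2% and 44.3% over all baits. Of 160 pairs called in at least 1 replicate, 9 were called in all 4 (2.85% over all baits), 4 in both ESC replicates and neither NEC replicate (2.56%) and 6 in both NEC replicates and neither ESC replicate (2.46%). The 9 retained pairs belonged to EHMT2 (4), CBX5 (3) and CBX3 (2).

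The strongest pair was that of CBX5 with the fragment chr12:54757256-54764824, which lies 88.8 kb away on the HNRNPA1 side and holds the start of GPR84, a receptor for fatty acids. It scored 21.6 and 22.5 in ESCs, against 24.97 and 22.1 in NECs, and 28.5 and 32.8 in the merged lists. All 14 merged PIRs of CBX5 in ESCs and all 13 in NECs were themselves baits. For CBX3, 1 of 25 and 3 of 40 were. The CBX5 bait was in turn a PIR of 0 other baits in the merged ESC list and of 1 in the merged NEC list. The merged ESC pairs of CBX5 were thus listed from the CBX5 side alone, and the cause of this was not tested. The CBX5 pairs are also those of HNRNPA1 and RP11-968A15.8, which start in the same bait. CBX5 was further contacted in all 4 replicates by chr12:54654323-54658316, which lies inside its own gene body 15.9 kb from the bait (merged 21.3 in ESCs and 17.1 in NECs), and by chr12:54726168-54731089 (17.98 and 15.7). A pair at 1880 kb, with a fragment that holds the starts of the myosin light chain genes MYL6 and MYL6B, was called in both NEC replicates (15.2 and 13.8) and in no ESC list.

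The CBX3 bait, which also holds the start of HNRNPA2B1, contacted a stretch of mostly intergenic fragments on the upstream side of CBX3. This side held 16 of the 25 merged PIRs in ESCs and 27 of 40 in NECs. The fragment chr7:26123276-26130995, 115 kb away, was called in all 4 replicates (13.2 and 17.1 in ESCs, 17.1 and 15.02 in NECs) and scored 21.5 and 27.8 in the merged lists. The highest merged score of CBX3 in ESCs was with chr7:26228324-26230648, 12.8 kb away over exons of HNRNPA2B1 (22.45, and 20.3 in NECs), which was called in 3 of 4 replicates. Another fragment called in all 4 replicates was chr7:25932772-25936200 at 308 kb (merged 21.0 and 20.9). Its immediate neighbour chr7:25918726-25932771 was called in both NEC replicates (17.4 and 17.99) and in neither ESC replicate, but was in the merged ESC list at 14.5 (NECs 25.5). Within the same stretch, chr7:25894198-25904065 was called only in NECs (14.4 and 17.2, merged 20.7), whereas 2 fragments between these, chr7:25904066-25909194 and chr7:25909195-25912216, were called in both ESC replicates and neither NEC replicate, although both reached 12.7 in the merged NEC list. When PIRs within 10 kb of each other were counted as the same region, no pair of the 9 baits remained specific to ESC replicates and 2 remained specific to NEC replicates.

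The EHMT2 gene lies in the major histocompatibility complex, where genes are dense. Of its merged PIRs, 20 of 22 in ESCs and 17 of 19 in NECs were themselves baits, and a link with gene density was not tested. The EHMT2 bait was in turn a PIR of 7 other baits in the merged ESC list and of 1 in the merged NEC list. Fragments with the starts of BAG6 and C6orf47 and of LY6G5B scored highest in ESCs, with merged scores of 24.8 in ESCs and 16.8 in NECs for the first and 26.4 and 15.4 for the second, and both were called in all 4 replicates, as were a fragment with the start of APOM and a fragment over exons of DDX39B. The fragment chr6:31742531-31750782, 124 kb away at the start of C6orf27, was called in both ESC replicates (18.5 and 16.2, merged 23.3) and in no NEC list. Within 10 kb of it, chr6:31729710-31737056 was called in both ESC replicates and in NEC replicate 2 (13.05). Conversely, the fragment with the start of TNXB, 212 kb away, was called in both NEC replicates (17.9 and 15.8) and in the merged lists at 13.1 in ESCs and 18.7 in NECs. The pair with the start of DDX39B was called in both NEC replicates (12.2 and 18.01) and in no ESC list. The fragment over exons of DDX39B that was called in all 4 replicates lies within 10 kb of it. The EHMT2 pairs are also those of C2 and ZBTB12, which start in the same bait.

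All merged PIRs of SUV39H2 lay on its upstream side, 6 in ESCs and 9 in NECs, and 5 fragments were shared. The highest scoring were 354 kb away in ESCs (15.6) and 346 kb away in NECs (15.96). The fragment chr10:14537831-14541214 at 382 kb was called in both NEC replicates (13.01 and 14.3, merged 15.5) and in no ESC list. However, the adjoining fragment chr10:14541215-14544874 was called in ESC replicate 1 (13.1) and NEC replicate 2 (13.7). It was in both merged lists (13.4 in ESCs and 12.8 in NECs). For TRIM28 the PIR with the highest score, 22.9 kb away, was listed at 14.6 in the merged ESC list and 20.2 in the merged NEC list, but in only 1 replicate. The highest merged scores of the remaining baits were lower. SETDB1 reached 13.5 in ESCs with chr1:150989821-150997494, 101 kb away, which was called in 1 replicate. SUV39H1 reached 12.6 in NECs with chrX:49017139-49030915, 475 kb away at the starts of MAGIX and PLP2, also called in 1 replicate. EHMT1 reached 12.4 in ESCs with chr9:140614085-140616282, in an intron of its own gene 109 kb away, which was called in no replicate.

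**Figure D5:**
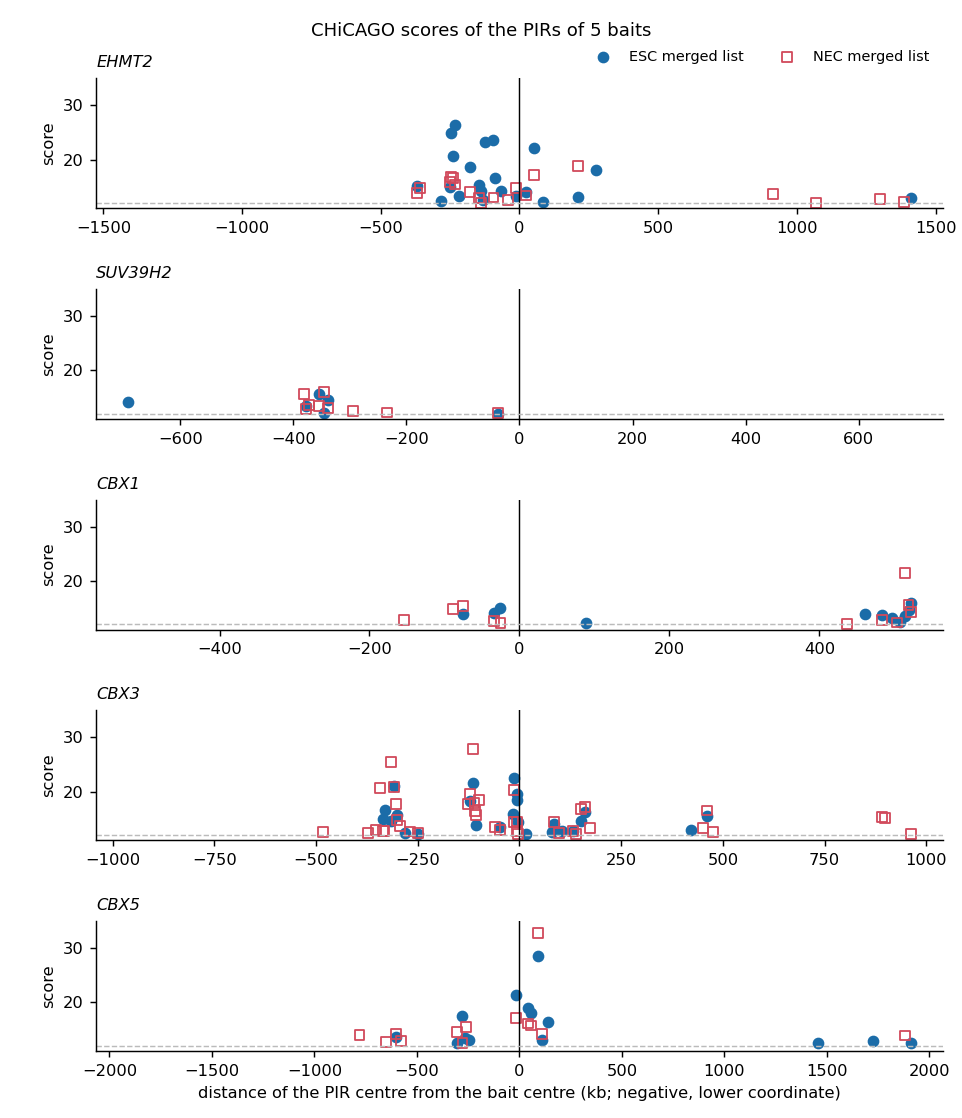
CHiCAGO score of each PIR of 5 promoter baits in the merged ESC list (blue points) and merged NEC list (red squares) against its distance from the bait centre in kb, with the threshold of 12 dashed. The CBX5 PIR at 88.8 kb scored highest (28.5 and 32.8), and all SUV39H2 PIRs lay on one side of the bait.

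The PIRs of the baits of the HP1 genes included fragments in HOX clusters, which encode factors of body patterning. This feature was chosen for description after its values were seen. The pairs are also those of SNX11 at the CBX1 bait, HNRNPA2B1 at the CBX3 bait and HNRNPA1 at the CBX5 bait. CBX1, CBX3 and CBX5 lie near the HOXB, HOXA and HOXC clusters respectively, at 425 kb, 890 kb and 222 kb from the bait centre to the nearest edge. CBX1 had 4 calls in HOXB in each ESC replicate, against 2 and 3 in NECs, and 7 and 6 in the merged lists. Its highest score in NECs was with chr17:46693112-46696334 (21.5, against 13.5 in ESCs), and a fragment with the start of HOXB9 was called in both ESC replicates (12.2 and 13.8) and neither NEC replicate, though at 14.2 in the merged NEC list (15.9 in ESCs). CBX5 had 3 and 5 calls in HOXC in ESCs, against 2 and 5 in NECs. CBX3 had 0 and 3 calls in HOXA in ESCs, against 3 and 1 in NECs, with 0 and 3 in the merged lists. Seen from the other side, baits in the clusters listed the CBX1 bait 3 and 4 times in the merged ESC and NEC lists. They listed the CBX3 bait 0 and 2 times and the CBX5 bait 0 and 0 times. Among the replicate lists, a HOXC bait listed the CBX5 bait only in NEC replicate 2 (1 call). The replicates of the cell types overlapped for CBX3 and CBX5, whereas for CBX1 both ESC replicates had more calls in HOXB than both NEC replicates. This difference was not tested, and the share of other baits whose calls in HOXB separate in this way was not determined. Other baits near these clusters also had such contacts, most often near HOXA and least often near HOXC. In the merged ESC and NEC lists a call was held by 69.2% and 53.8% of 13 other baits within 1 Mb of HOXA. The shares were 44.2% and 46.5% of 43 near HOXB, and 21.7% and 21.7% of 46 near HOXC. More calls than CBX3 were held by 9 and 2 of those near HOXA. Near HOXB, 2 and 2 had more than CBX1, and near HOXC, 5 and 6 had more than CBX5. The summed expression of the HOXA genes was 0.318 and 0.971 CPM in the ESC libraries and 40.9 and 33.8 CPM in the NEC libraries, that of the HOXB genes 0.954 and 1.05 CPM and 45.0 and 19.1 CPM, and that of the HOXC genes 0.0530 and 0.162 CPM and 1.68 and 1.01 CPM.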

How the data were processed

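RNA-seq counts of 4 libraries and PCHi-C lists of 4 replicates and 2 merged samples were analysed. The authors trimmed the reads, aligned them with TopHat2 (2.0.8b in the submitters' processing notes, which also name Bowtie 1.0.0) to GRCh37 (hg19), and counted reads per gene in SeqMonk without regard to strand, and the deposited values are raw counts. The authors scored pairs of HindIII fragments with CHiCAGO, and the deposited score of at least 12 is the only value of a pair. Counting without strand and an unknown treatment of reads with several matches can shift counts between overlapping genes and pseudogenes.

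The filterByExpr function at a minimum count of 10 left 17564 of 31017 genes, which were scaled by TMM and tested with edgeR 4.0.16 in R 4.3.3 (Benjamini-Hochberg over all genes tested, prior count 0.125). CPM values are scaled by TMM, and p-values rest on the spread between 2 libraries per cell type, moderated with that of the other genes tested. Library totals were 19234087 to 25356382. Alternatives were DESeq2 1.42.0, other scalings and filters, no fold threshold, a replicate block, each replicate left out, a score of 15, PIRs matched within 10 kb, and baits at any transcript start. The test was run on simulated data first. A bait belonged to a gene when it held the gene start of the count table, and retained or cell type-specific pairs were defined by the calls in the replicates. The 10 genes and the lists were chosen with earlier results of these data known. From each list the genes past the fold criterion of the study, or otherwise the 2 with the largest absolute log2 fold change among those that passed, are named, together with every gene starting in the same bait and, for each bait, the PIR with the highest merged score and every retained or cell type-specific pair. Scripts used Python, pandas and matplotlib. The conventional Hi-C was not used here.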

Additional observations from a re-analysis of the deposited data

How the results depend on the processing

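Of the 10 genes, CBX5 and CBX1 passed and CBX3 did not under all 11 alternatives. Leaving out each library in turn gave 2 to 4 genes higher in NECs (5 with all libraries) and 0 to 2 lower (2). A cell type left with 1 library is assumed there to vary like the other. With scaling by library size alone 1 gene was lower, as EHMT1 was lost, and the median of all genes moved to 0.07 from 0.01. With no fold threshold, 5 of the 10 genes were called higher and 2 lower, and 13 and 10 of the further H3K9 genes. Without a filter on low counts 1 further gene was called lower, and 0 to 1 were with a library left out. With each library left out in turn, the log2 fold change ran from -0.0268 to 0.207 for SUV39H1 and from -0.140 to 0.0250 for SUV39H2. It turned to -0.0262 for SUV39H1 without ESC replicate 1 and to -0.0268 without NEC replicate 1, and for SUV39H2 to 0.00526 with library size alone and to 0.0250 without NEC replicate 1. At a score of at least 15, 32 merged PIRs were left in ESCs and 35 in NECs, with 15 shared, and 1 pair was in all 4 replicates. With PIRs within 10 kb matched, 40 pairs were in all 4 replicates, 0 were specific to ESCs and 2 to NECs. The cause of these changes was not tested.

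The replicate numbers gave no sign of a pairing of the libraries, as the replicate differences of ESCs and NECs correlated across genes with r = 0.07 (2 pairs). A single correlation of this kind cannot exclude a pairing. With the replicate number as a block, 5 of the 10 genes still passed as higher and 2 as lower, no gene of the 10 changed its call, and 14 and 12 of the further genes passed (13 and 10 without the block).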
